A study of Oryza sativa with 12 samples.

Results

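The transcriptomes of leaves from 2 transgenic rice lines with opposite changes in OsbZIP62 were examined for changes that the lines had in common. OsbZIP62 is a bZIP transcription factor. The members are all 12 libraries of the series, 6 transgenic and 6 wild type, fitted together with a term for cultivar and a term for transgenic status. The transgenic groups were OsbZIP62V (line OE1), which overexpresses OsbZIP62 fused to the VP64 activation module in cultivar Kitaake, and the CRISPR/Cas9 mutant osbzip62 (line C54), made in cultivar Nipponbare. They were set against untransformed Kitaake and Nipponbare. Each group had 3 libraries, described as biological replicates of pooled plants. All plants were grown in liquid culture under normal conditions to the four-leaf stage, and leaves were labelled as the tissue. The study's methods state that C54 was homozygous, that Agrobacterium carried the mutant construct and that the OsbZIP62V seeds came from another institution. Each group was 1 line, so an effect of the construct, of its insertion site, of tissue culture and of the seed stock cannot be told apart. In the stress assays of the same study the transgenic seedlings were selected on hygromycin and the wild types were not. The sources used here do not say whether this was done for the sequenced plants.

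Rice is commonly transformed by regenerating whole plants from callus in which a T-DNA has inserted, so the plants have passed through culture, whatever the cargo. Which construct parts the 2 lines share was not examined. Abscisic acid (ABA), the hormone of water deficit, acts by inhibiting protein phosphatases of type 2C (PP2C), which frees SnRK2 kinases to activate bZIP factors of the ABF class. These bind ABA-responsive elements in genes of dehydrins and other late embryogenesis abundant (LEA) proteins, which protect cells that dry. In the mutant construct the guide was aimed at OsbZIP62 on chromosome 7. The stretch of 19 bases that its paired oligonucleotides have in common is shown here because it is what distinguishes the cargo of this line. It reads 5′ to 3′, in lower case throughout, as follows.
OsbZIP62 target stretch: gcgtgtataaccgcgtgga

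The libraries held 9224755 to 19759728 counts, and 22922 to 26139 of 35679 listed genes had a count. The unit of level below is CPM, the count of a gene relative to the total of its library, with that total adjusted for composition (TMM). In a principal component analysis of log2 CPM, neither component 1 nor component 2 separated transgenic from wild-type libraries. Component 1 (44.5% of the variance) ranged from -67.9 to 91.6 in OsbZIP62V libraries, from -111 to -106 in Kitaake, from -0.27 to 59.5 in osbzip62 and from -23.0 to 146 in Nipponbare. On it OsbZIP62V replicate 2 (-67.9, against 36.3 and 91.6) and Nipponbare replicate 3 (-23.0, against 75.5 and 146) were the lowest libraries of their groups. Component 3 (9.04% of the variance) was negative in all 6 transgenic libraries, at -53.8 to -12.0, and positive in all 6 wild-type libraries, at 13.8 to 54.9. Of 8 leaf markers (photosynthetic genes) 4 could be paired with an identifier, none at 0 in any group. A locus could be paired only if the authors had listed its gene as changed in these libraries. The 4 were thus preselected for change and are no neutral sample of leaf genes. Their summed level was 129, 1828 and 2952 CPM in OsbZIP62V (lowest, median and highest), against 74.6, 83.3 and 88.5 CPM in Kitaake. It was 551, 892 and 2781 CPM in osbzip62, against 731, 5162 and 8600.3 CPM in Nipponbare. The sum over these 4 markers was thus lower in all Kitaake libraries than in any other library. The part of this in the results below was not tested. In bulk leaves, fewer cells of a type and less RNA per cell cannot be told apart. None of the root or dividing-cell markers on the lists was among the loci that could be paired in this way, so those tissues were not examined.

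**Figure D1:**
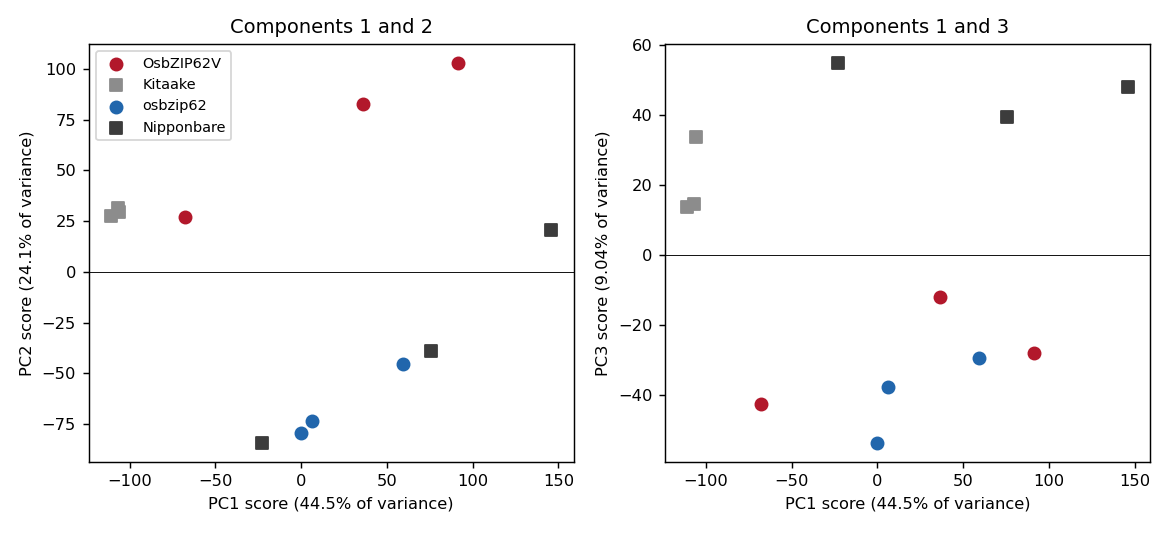
Scores of the 12 libraries on principal components of log2 CPM over the 21878 genes tested, component 2 (left) and component 3 (right) against component 1. Circles are transgenic and squares wild-type libraries. Component 3 is below 0 in all 6 transgenic libraries and above 0 in all 6 wild-type libraries.

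OsbZIP62 (LOC_Os07g48660) itself was not among the shared calls. Its level was 1174, 1038 and 809.6 CPM in OsbZIP62V plants, against 0.453, 0.311 and 0.0995 CPM in Kitaake. In osbzip62 plants it was 0.995, 0.596 and 0.340 CPM, against 0.166, 0.852 and 0.0684 CPM in Nipponbare. All OsbZIP62V libraries were far above Kitaake, whereas the osbzip62 and Nipponbare libraries overlapped. The log2 fold change was 11.92 (SE 0.69, adjusted p = 1.34e-05) in OsbZIP62V and 0.81 (SE 0.67, adjusted p = 0.540) in osbzip62, and the effects differed (adjusted p = 0.00178, edgeR quasi-likelihood test). Transgenic status as such gave 8.46 (SE 2.42, adjusted p = 0.118). The overexpression construct carries the coding sequence, so its reads and those of the native gene cannot be told apart. An edit of the gene need not alter its transcript level, so the counts are no check of the mutant label.

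With transgenic status 177 genes were higher (0.809% of 21878 tested) and 24 lower (0.110%), which is 0.919% in either direction, at an adjusted p under 0.05 and a log2 fold change beyond 1 by edgeR's quasi-likelihood test, which gives all adjusted p-values below. Without the fold minimum 329 genes passed (1.50%). The raised genes had a median log2 fold change of 1.89 and the lowered ones of -1.52, against -0.01 over all genes tested. Within the cultivars the 177 genes had medians of 1.76 in OsbZIP62V and 1.92 in osbzip62. The log2 fold change was over 1 in both lines for 124 of the 177, in OsbZIP62V alone for 21 and in osbzip62 alone for 32. Of the 24 lowered genes, 13 were below -1 in both lines, 5 in OsbZIP62V alone and 6 in osbzip62 alone. In 152 of the 177 every transgenic library lay above every wild-type library of its own cultivar, in both cultivars, a pattern that 2.05% of all genes tested had in that direction. The mirror pattern was found in 18 of the 24, against 1.38% of all genes. The additive fit selects for such genes, so these shares describe the calls and do not test them. The counts depended on single libraries. The number of higher genes was 83 without osbzip62 replicate 3, 91 without OsbZIP62V replicate 2, 97 without Kitaake replicate 1 and 116 without Kitaake replicate 3. The number of lower genes was 7 without Kitaake replicate 1, 10 each without OsbZIP62V replicate 2, osbzip62 replicate 1 or osbzip62 replicate 3, 12 each without OsbZIP62V replicate 3 or Kitaake replicate 2, and 14 without osbzip62 replicate 2. Without both OsbZIP62V replicate 2 and Nipponbare replicate 3, 58 genes were higher and 9 lower, of which 57 and 6 were among the 177 and the 24. A core of 72 higher and 4 lower genes was called whichever single library was left out. Not all of these changed in both lines. The core includes LOC_Os06g10260, LOC_Os03g31560, LOC_Os10g34409 and LOC_Os07g02430, described below, whose change was in osbzip62 alone.

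The shared genes stood against a background in which the lines went apart. Over the 21878 genes the log2 fold changes of OsbZIP62V and osbzip62 correlated at r = -0.45 (Spearman's rho = -0.23), and 44.9% had the same sign. The comparisons share no library, but all genes of a library share its depth and composition. The difference between the 2 effects passed the test in 1553 genes (7.10%). That count ran from 345 without osbzip62 replicate 1 to 3864 without Nipponbare replicate 3, and all but 1 of the 12 fits that left out a library (the one without osbzip62 replicate 2, 1055 genes) moved it by over 1.5 times. Among the called genes the difference passed in 14 of the 177 higher ones, a share near the 7.10% of all genes tested, and in 1 of the 24 lower ones. Tested cultivar by cultivar, OsbZIP62V had 490 higher genes (2.24%) and 376 lower (1.72%), and osbzip62 had 365 higher (1.67%) and 156 lower (0.713%). Of these, 61 were higher in both, which is 12.4% of the OsbZIP62V list and 16.7% of the osbzip62 list, and 3 were lower in both. Opposite calls were found for 7 genes that rose in OsbZIP62V but fell in osbzip62, and for 21 with the opposite pattern.

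**Figure D2:**
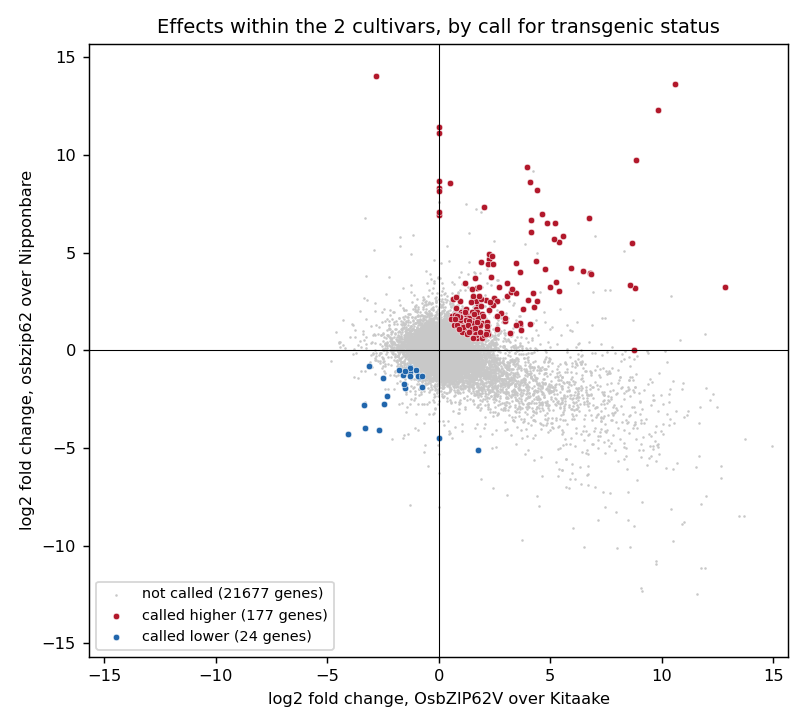
Log2 fold change of each of 21878 genes in osbzip62 over Nipponbare (vertical axis) against OsbZIP62V over Kitaake (horizontal axis), with the 177 genes called higher (red) and the 24 called lower (blue) for transgenic status. Most grey points with large changes lie at the lower right, up in OsbZIP62V and down in osbzip62, whereas the called genes lie mainly in the upper right and lower left. Called points on an axis line had no count in either group of that cultivar.

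The clearest shared change was in a handful of genes that were silent in both wild types. A search of all 35679 listed genes for at least 10 counts in every transgenic library and at most 3 counts over the 6 wild-type libraries found 5 genes, and the reverse search found 0. LOC_Os03g02470, annotated as an expressed protein of unknown role, had 115, 137 and 95.7 CPM in OsbZIP62V, against 0, 0.124 and 0.0498 CPM in Kitaake. In osbzip62 it had 95.1, 87.6 and 97.7 CPM, against 0 CPM in all Nipponbare libraries. The levels in the 2 transgenic lines were close to each other, with 6516 counts over the OsbZIP62V libraries and 5156 over the osbzip62 libraries. The ratio to Kitaake was 1731 (95% counting interval 592 to 8396, from 3 Kitaake counts), and the gene was at least 1528-fold higher in osbzip62 than in Nipponbare. Such bounds allow 3 counts over the wild-type group, and intervals and bounds cover counting error only.

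LOC_Os03g18779, a conserved hypothetical protein, had the same form. It reached 44.8, 38.7 and 54.3 CPM in OsbZIP62V, against 0, 0 and 0.0995 CPM in Kitaake, a ratio of 1037 (287 to 8566). In osbzip62 it reached 36.3, 39.9 and 36.0 CPM, against 0 CPM throughout Nipponbare, which is at least 612-fold higher. LOC_Os03g43100, an expressed protein, had 3.90, 2.88 and 3.38 CPM in OsbZIP62V, against 0 CPM in all Kitaake libraries. Its osbzip62 values were 5.18, 6.66 and 6.81 CPM, against 0 CPM in all Nipponbare libraries. It was at least 50.7-fold higher in OsbZIP62V, and by counts the osbzip62 libraries held more of it. All 3 of these loci lie on chromosome 3 by their names, none of them next to another.

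The other silent genes were at lower levels. LOC_Os07g32680, annotated as an unclassified retrotransposon protein, had 51, 13 and 105 counts in OsbZIP62V, against none in Kitaake, so it was at least 44.9-fold higher. The osbzip62 libraries had 18, 37 and 14 counts, against 1, 0 and 0 in Nipponbare, a ratio of 61.3 (10.6 to 2457). OS04G0397800, for which no locus was paired, had 12, 19 and 12 counts in OsbZIP62V and 17, 12 and 15 in osbzip62, against none in any wild-type library. It was at least 11.4-fold higher in OsbZIP62V than in Kitaake. The adjusted p for transgenic status was 9.18e-08 for LOC_Os03g02470, 2.64e-07 for LOC_Os03g18779, 2.84e-04 for LOC_Os03g43100, 0.00333 for LOC_Os07g32680 and 0.00759 for OS04G0397800. The transgenes themselves (VP64, Cas9, the selection gene) were not analysed here.

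**Figure D3:**
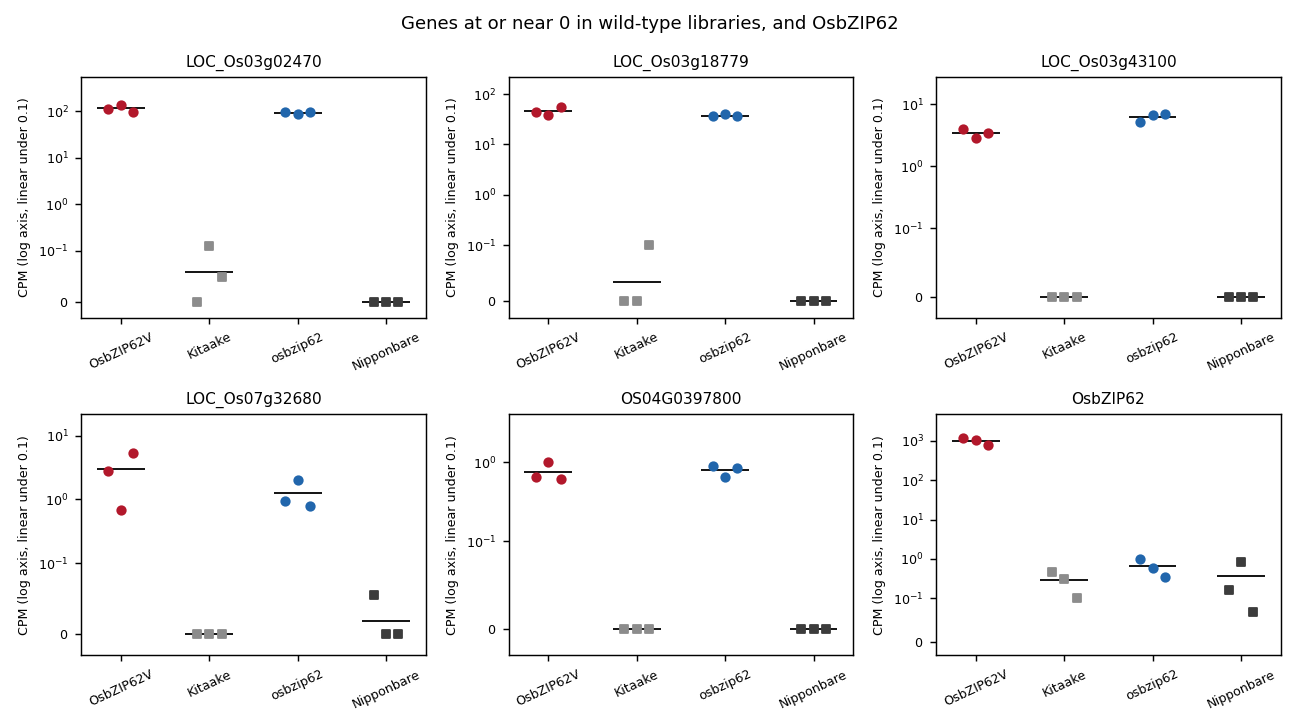
CPM in each library (points) and group mean (bars) for the 5 genes found in every transgenic library and almost no wild-type library, and for OsbZIP62. The axis is logarithmic and turns linear under 0.1 CPM. The first 5 genes are present in both transgenic groups, and OsbZIP62 is high in OsbZIP62V alone.

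A stricter test asked each gene to pass in both cultivars on its own, in the same direction, with the larger of the 2 p-values adjusted over all genes. It was passed by 16 genes (0.0731%), all higher. With a library left out it was passed by 9 genes without osbzip62 replicate 1, Nipponbare replicate 1 or Nipponbare replicate 3, by 10 without Kitaake replicate 3, and by 11 to 13 in the other fits. Besides the first 3 silent genes, the strongest was LOC_Os07g03040, an expressed protein. It had 46.0, 43.4 and 22.3 CPM in OsbZIP62V, against 0.566, 0.994 and 0.995 CPM in Kitaake. Values in osbzip62 were 29.3, 26.1 and 32.3 CPM, against 0.610, 0.913 and 0.342 CPM in Nipponbare. The log2 fold changes were 5.38 (SE 0.38) and 5.53 (SE 0.38), nearly equal, with an adjusted p of 1.30e-04 for both passing.

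LOC_Os10g28350 encodes a dioxygenase that acts on 1,2-dihydroxy-3-keto-5-methylthiopentene, a step of the methionine salvage cycle, which recovers the methylthio group released when ethylene and polyamines are made. It had 42.7, 44.3 and 21.7 CPM in OsbZIP62V, against 0.906, 0.559 and 1.29 CPM in Kitaake. Libraries of osbzip62 held 18.2, 14.5 and 9.30 CPM, against 0.776, 1.95 and 0.958 CPM in Nipponbare. No transgenic library came near a wild-type one, and the shared log2 fold change was 4.37 (SE 0.44, adjusted p = 9.61e-04). LOC_Os01g07170 carries a HORMA domain, found in proteins of the meiotic chromosome axis. It averaged 13.3 ± 3.96 CPM in OsbZIP62V, against 1.60 ± 0.499 in Kitaake, and 13.4 ± 2.18 CPM in osbzip62, against 1.95 ± 0.299 in Nipponbare (SD, n = 3 each). Its level was thus alike in the 2 transgenic groups and in the 2 wild types, with a shared log2 fold change of 2.92 (SE 0.22, adjusted p = 7.02e-05).

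LOC_Os02g01590, annotated as similar to fructosyltransferase and thus to the invertase family that splits sucrose, had 162, 182 and 198 CPM in OsbZIP62V, against 8.95, 15.6 and 13.9 CPM in Kitaake. Its osbzip62 values were 261, 265 and 353 CPM, against 66.5, 79.9 and 53.8 CPM in Nipponbare. It rose in both, by 3.80 (SE 0.24) and 2.14 (SE 0.22) on the log2 scale, and more in OsbZIP62V (adjusted p of the difference 0.0156). LOC_Os01g11600, a conserved hypothetical protein, rose by 3.25 and 2.97, and LOC_Os01g09640, similar to an I-box binding factor of the MYB-related class, by 1.65 and 1.57. LOC_Os07g27350, an atuA-like protein, rose by 1.76 and 1.68, and OS07G0456400 by 0.95 and 0.89, which left it short of the fold minimum. The remaining 5 genes were LOC_Os07g32710, LOC_Os03g22655, LOC_Os05g03920 and OS02G0772100, of undescribed role, and LOC_Os03g17790, treated with the water-deficit genes. OS02G0772100 rose more in osbzip62, to 69.7, 51.4 and 71.4 CPM, than in OsbZIP62V, to 3.57, 6.45 and 8.40 CPM, against 0 to 0.497 CPM in the wild-type libraries.

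**Figure D4:**
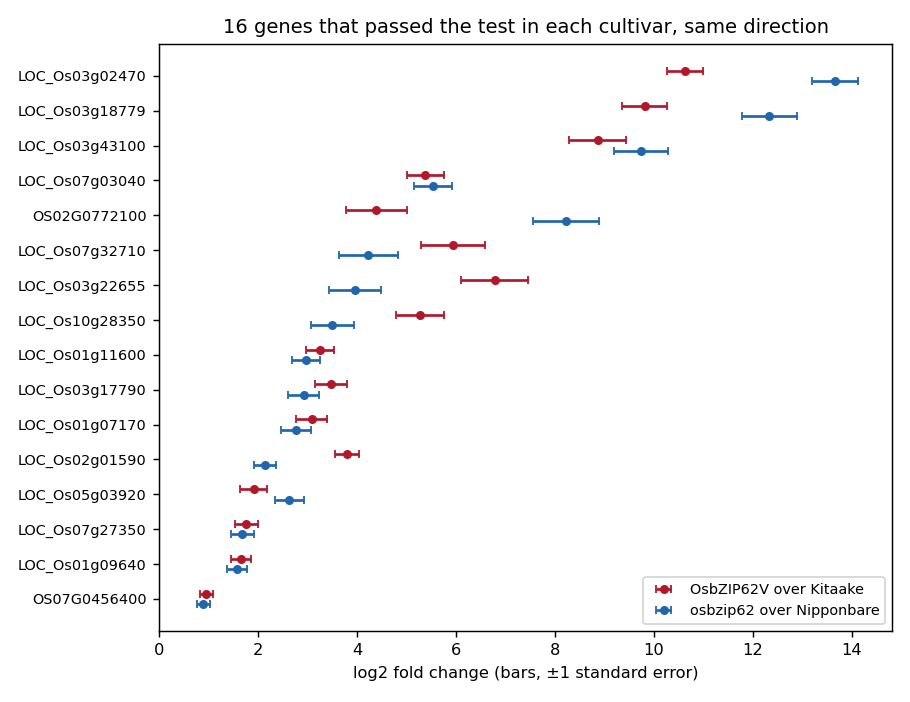
Log2 fold change (points) and standard error (bars) in OsbZIP62V over Kitaake and in osbzip62 over Nipponbare for the 16 genes that passed the test in both cultivars, ordered from top to bottom by the smaller change. For LOC_Os03g02470, LOC_Os03g18779 and LOC_Os03g43100, and for LOC_Os03g22655 in Kitaake, the wild-type group had at most 3 counts, so those fitted values depend on a prior count and are no bounds. All points lie above 0, and those of LOC_Os07g03040 nearly coincide whereas those of OS02G0772100 lie far apart.

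Genes of water deficit and ABA response were among the shared calls. Of 40 members tested, 7 rose (17.5%) and 0 fell, against 0.809% of all genes tested and 5.46% of the 2803 tested genes with a paired locus that were higher. The median log2 fold change of the members was 1.15, and 2.18 in OsbZIP62V and 0.44 in osbzip62. The median over all tested genes with a paired locus was 0.56, and 1.40 and -0.47 within the lines. A locus could be paired only if the authors had listed its gene as changed in these libraries, so the members are not independent evidence of their direction. Of the 40, 18 had opposite signs in the 2 lines, while over all genes tested 44.9% had the same sign. The 7 were Rab21, an LEA protein, a low-temperature protein, 3 PP2Cs and a universal stress protein.

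Rab21 (LOC_Os11g26790), a dehydrin that ABA and drying induce, had 1.98, 1.81 and 1.84 CPM in OsbZIP62V, against 0, 0 and 0.149 CPM in Kitaake. In osbzip62 it had 1.78, 1.03 and 1.98 CPM, against 0.0554, 0.183 and 0 CPM in Nipponbare. It was scarcely detected in wild types and low in the transgenic lines, at 19 to 36 counts per library. The shared log2 fold change was 4.47 (SE 0.64, adjusted p = 0.00718). The LEA gene LOC_Os01g50910 averaged 16.5 ± 2.67 CPM in OsbZIP62V, against 0.328 ± 0.417 CPM in Kitaake (SD, n = 3 each). It had 6.65, 2.65 and 10.1 CPM in osbzip62, against 1.39, 0.426 and 0.479 CPM in Nipponbare. The groups did not overlap in either cultivar, though osbzip62 spread widely, and the shared change was 4.19 (SE 0.69, adjusted p = 0.0151).

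LOC_Os03g17790, similar to barley lt101.2, a small membrane protein of cold-treated plants, had 122, 142 and 76.2 CPM in OsbZIP62V, against 8.61, 10.9 and 10.8 CPM in Kitaake. The osbzip62 libraries had 36.2, 42.2 and 74.6 CPM, against 5.99, 7.91 and 6.29 CPM in Nipponbare. Both lines rose, by 3.48 (SE 0.32) and 2.92 (SE 0.31), and the difference between them did not pass the test (adjusted p = 0.421). Of the PP2Cs, LOC_Os01g40094 averaged 140.3 ± 6.45 CPM in OsbZIP62V, against 32.4 ± 4.13 in Kitaake, and 151 ± 45.3 CPM in osbzip62, against 75.8 ± 22.2 in Nipponbare (SD, n = 3 each). LOC_Os06g48300 had 8.85, 14.5 and 7.38 CPM in OsbZIP62V, against 2.27, 4.66 and 5.03 CPM in Kitaake, and 4.87, 6.12 and 10.9 CPM in osbzip62, against 2.38, 2.37 and 2.26 CPM in Nipponbare. The groups of neither PP2C overlapped within a cultivar. PP2C68 (LOC_Os09g15670) rose by 3.20 in OsbZIP62V and showed 0.88 in osbzip62, a difference that passed (adjusted p = 0.0118). The calls of Rab21, the LEA gene, LOC_Os03g17790 and LOC_Os01g40094 were kept in all 12 fits that left out a library. That of LOC_Os06g48300 was lost without OsbZIP62V replicate 2 or osbzip62 replicate 3 (adjusted p up to 0.0672), that of PP2C68 in 10 of the 12 fits (up to 0.118) and that of the universal stress gene LOC_Os01g32780 in 10 (up to 0.0974).

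**Figure D5:**
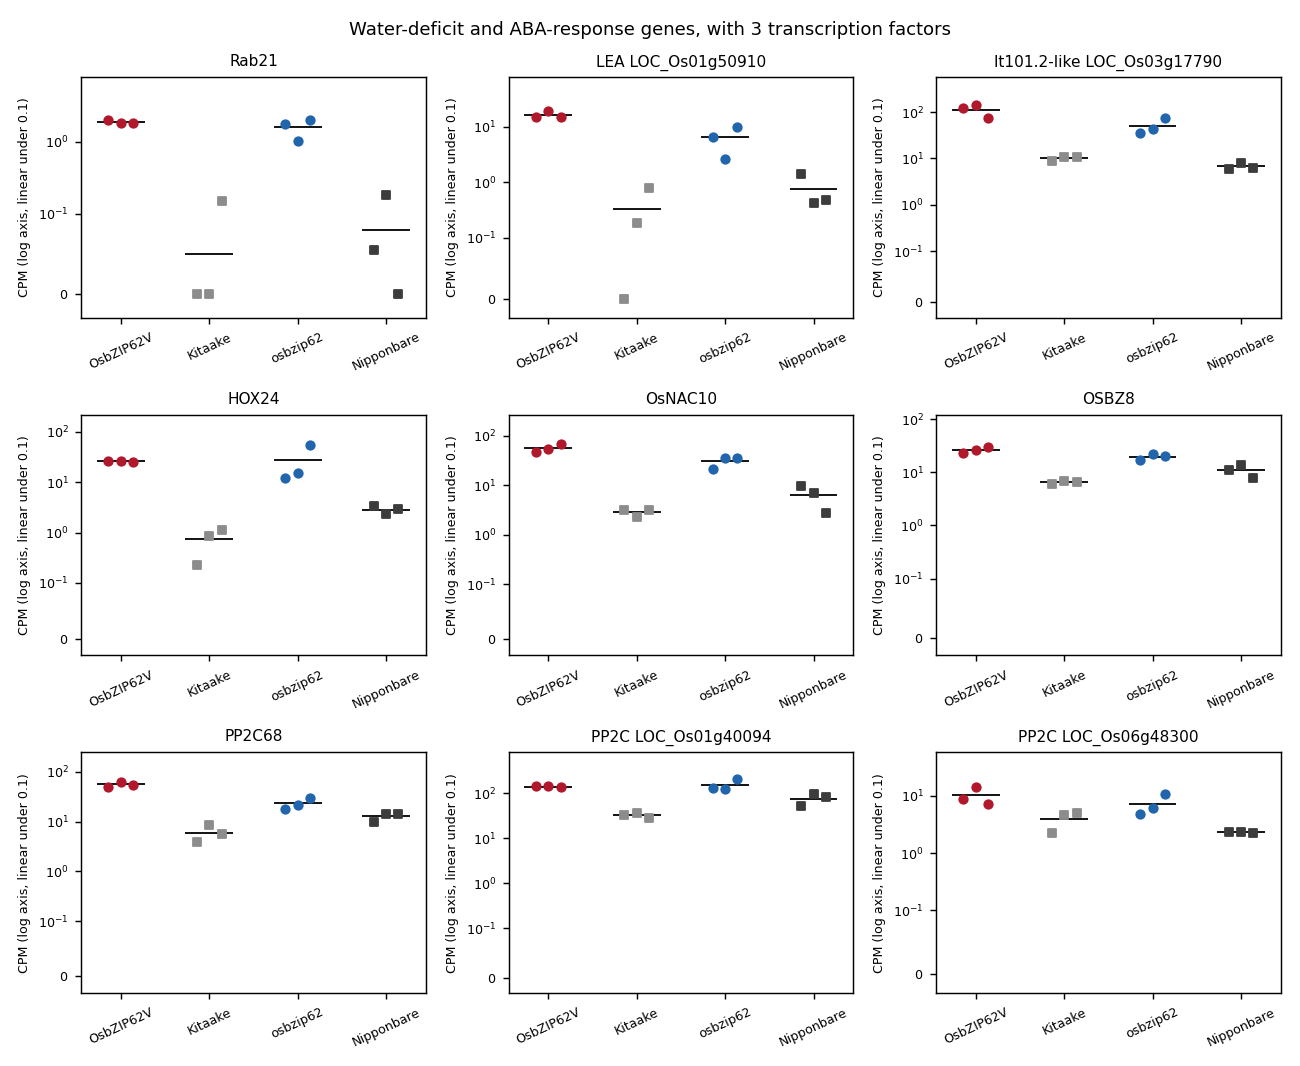
CPM in each library (points) and group mean (bars) for 6 of the 7 called genes of the water-deficit and ABA list and for the transcription factors HOX24, OsNAC10 and OSBZ8, on an axis that is logarithmic above 0.1 CPM. In each panel all transgenic libraries lie above the wild-type libraries of their cultivar. The fitted change is larger in OsbZIP62V in every panel but that of LOC_Os06g48300. The difference between the lines passed the test only for PP2C68, OSBZ8 and OsNAC10.

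Of 124 transcription factors tested, one of the longest lists, 19 were higher (15.3%, against 5.46% of all genes with a paired locus) and 1 lower (0.806%, against 0.535%), at a median log2 fold change of 0.79 (1.40 in OsbZIP62V and 0.37 in osbzip62). HOX24 (LOC_Os02g43330), a homeodomain-leucine zipper factor, had 26.4, 26.4 and 25.1 CPM in OsbZIP62V, against 0.227, 0.870 and 1.14 CPM in Kitaake. Values in osbzip62 were 12.3, 15.3 and 55.0 CPM, against 3.33, 2.31 and 2.94 CPM in Nipponbare. The shared change was 4.07 (SE 0.51, adjusted p = 0.00327). OsNAC10 (LOC_Os11g03300), a NAC factor of drought tolerance, had 47.3, 52.6 and 66.2 CPM in OsbZIP62V, against 3.17, 2.30 and 3.14 CPM in Kitaake. Libraries of osbzip62 held 21.1, 35.1 and 35.4 CPM, against 9.76, 6.82 and 2.74 CPM in Nipponbare. It rose in both lines, by 4.27 in OsbZIP62V and 2.24 in osbzip62, and the difference of 2.03 passed (adjusted p = 0.0468).

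Another NAC gene, LOC_Os07g48550, averaged 183 ± 56.1 CPM in OsbZIP62V, against 51.5 ± 7.29 in Kitaake, and 98.8 ± 22.1 CPM in osbzip62, against 38.5 ± 1.41 in Nipponbare (SD, n = 3 each; adjusted p = 0.00164). The TINY-like AP2 factor LOC_Os06g07030 rose by 1.55 (adjusted p = 0.0149). Both calls, and those of HOX24 and OsNAC10, were kept whichever library was left out. Of 10 tested genes annotated as bZIP, OsbZIP62 included, 4 were higher (40.0%, against 5.46% of all genes with a paired locus) and 0 lower. This count was made after their values were seen, so it tests nothing about the family. OSBZ8 (LOC_Os01g46970), known to bind ABA-responsive promoters, averaged 26.4 ± 3.74 CPM in OsbZIP62V, against 6.45 ± 0.419 in Kitaake, and 19.5 ± 2.45 CPM in osbzip62, against 10.8 ± 2.89 in Nipponbare (SD, n = 3 each). OsABF1 (LOC_Os01g64730), an ABF-class factor, rose by 1.34, OsbZIP16 (LOC_Os02g09830) by 2.56 and OsbZIP04 (LOC_Os01g36220) by 1.16. The call of OSBZ8 was kept with each library left out. That of OsABF1 was lost without OsbZIP62V replicate 2 (adjusted p = 0.0672), that of OsbZIP16 in 6 of 12 fits (up to 0.0900) and that of OsbZIP04 in 8 (up to 0.0894). The genes that the study assayed by qPCR or promoter binding gave 2 calls among 13 tested, OsNAC10 and DSM2 (LOC_Os03g03370). That is 15.4%, against 5.46% of all genes with a paired locus. DSM2, a beta-carotene hydroxylase on the way to ABA, rose by 1.09 (adjusted p = 0.0291) and lost its call in 7 of the 12 fits (up to 0.0763). Of the 13, 10 had opposite signs in the 2 lines, and the difference of effects passed in 8. Their median log2 fold change was 2.06 in OsbZIP62V and -1.83 in osbzip62. For the promoter assay the study states that it chose genes raised in OsbZIP62V and lowered in osbzip62. The genes for qPCR were taken from those it had listed as changed. These signs, differences and medians were thus largely set by that choice and are no independent evidence.

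Other described genes with the largest change in both lines had varied roles. LTPL47 (LOC_Os01g42210), of the lipid-transfer and seed-storage family, had 28, 24 and 27 counts in OsbZIP62V, against 0, 1 and 0 in Kitaake, and 7, 14 and 2 counts in osbzip62, against none in Nipponbare. A gene similar to NBS-LRR resistance proteins, LOC_Os06g49350, had 128, 131 and 131 counts in OsbZIP62V, against 2, 0 and 1 in Kitaake. It had 7, 5 and 13 counts in osbzip62, against 1, 0 and 0 in Nipponbare, so most of its signal came from OsbZIP62V. A glycoside hydrolase, LOC_Os07g35350, had 3, 29 and 52 counts in OsbZIP62V, against 0, 1 and 1 in Kitaake, and 13, 40 and 83 counts in osbzip62, against 0, 1 and 0 in Nipponbare. These low counts passed the test (adjusted p = 0.00417, 0.00249 and 0.0136) and stayed called in all 12 fits that left out a library.

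The seipin gene LOC_Os12g05330, of a family that shapes lipid droplets, rose by 3.83 on the log2 scale, and malate synthase (LOC_Os04g40990), an enzyme of the glyoxylate cycle that turns stored fat into sugar, by 3.27. Malate synthase had 13.1, 80.1 and 16.9 CPM in OsbZIP62V, against 2.27, 7.21 and 3.38 CPM in Kitaake, and 15.1, 53.4 and 74.6 CPM in osbzip62, against 3.22, 8.89 and 0.958 CPM in Nipponbare. The groups were apart, but replicates of 1 group differed several fold. The peroxidase P7 homologue LOC_Os06g35520 (4.66), the Myb/SANT-like gene LOC_Os08g38800 (3.91) and the photosystem II 10 kDa gene LOC_Os07g05365 (3.20) also rose. The 5 calls of this paragraph rested on few libraries. That of the seipin gene was lost in 3 of 12 fits with a library left out (without OsbZIP62V replicate 2, Kitaake replicate 3 or osbzip62 replicate 3, adjusted p up to 0.0612), those of the peroxidase and the photosystem gene in 6 each (up to 0.0790 and 0.0747), that of the Myb/SANT-like gene in 7 (up to 0.0727) and that of malate synthase in 8 (up to 0.102).

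Some called genes of salt, sugar and cytoskeleton, chosen after their values were seen, had the same form. An alpha-galactosidase gene (LOC_Os10g35070), whose enzyme splits galactose from raffinose-type sugars, averaged 74.9 ± 6.98 CPM in OsbZIP62V, against 12.2 ± 3.10 CPM in Kitaake (SD, n = 3 each). In osbzip62 the average was 66.1 ± 30.9 CPM, against 19.2 ± 4.74 CPM in Nipponbare. No group overlapped with its wild type, with log2 fold changes of 2.61 in OsbZIP62V and 1.78 in osbzip62 (shared adjusted p = 0.00249), and the call was kept with each library left out. OsNHX1 (LOC_Os07g47100), a vacuolar sodium and proton exchanger, had 31.8, 32.3 and 27.4 CPM in OsbZIP62V, against 8.16, 5.72 and 6.47 CPM in Kitaake. It had 14.9, 10.5 and 33.6 CPM in osbzip62, against 8.76, 8.10 and 8.14 CPM in Nipponbare, so that 1 osbzip62 library stood well above the others. The shared change was 1.70 (SE 0.28, adjusted p = 0.0154), and the call was lost without osbzip62 replicate 3 (adjusted p = 0.0525). Actin-depolymerizing factor 3 (LOC_Os03g60580) rose by 2.46 (SE 0.42, adjusted p = 0.0177), with a call lost without OsbZIP62V replicate 2 (adjusted p = 0.0531).

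Lowered genes were few and changed less. LOC_Os06g37010, similar to zinc transporter 4, averaged 11.9 ± 2.21 CPM in OsbZIP62V, against 34.6 ± 7.01 CPM in Kitaake (SD, n = 3 each). Its osbzip62 values were 10.8, 13.8 and 7.43 CPM, against 57.3, 25.4 and 22.7 CPM in Nipponbare. It fell by 1.54 in OsbZIP62V and by 1.72 in osbzip62 (shared adjusted p = 0.0101). The NAC-like gene LOC_Os01g23710 had 13.2, 12.4 and 8.15 CPM in OsbZIP62V, against 39.1, 27.5 and 30.4 CPM in Kitaake. It had 5.97, 7.91 and 6.86 CPM in osbzip62, against 16.7, 29.9 and 31.9 CPM in Nipponbare, a shared change of -1.72 (SE 0.20, adjusted p = 0.00232). These and the cyclophilin LOC_Os10g06630 (-1.27, adjusted p = 0.0116) stayed called in each fit with a library left out.

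The lowered genes also included 3 of carbohydrate metabolism, beta-amylase LOC_Os07g35880 (-1.11) and cytosolic alpha-glucan phosphorylase 2 (LOC_Os01g63270, -1.01 in OsbZIP62V and -0.99 in osbzip62), which break down starch and glucans, and aldose 1-epimerase LOC_Os09g15820 (-1.03), which interconverts sugar forms. The phosphorylase had 51.2, 39.5 and 39.1 CPM in OsbZIP62V, against 103, 75.7 and 82.8 CPM in Kitaake, and 29.5, 28.3 and 27.6 CPM in osbzip62, against 52.4, 49.1 and 68.6 CPM in Nipponbare. Its adjusted p stayed at or under 0.0119 in all fits, and its call was lost in 6 because the change fell short of the fold minimum. Prolyl endopeptidase LOC_Os04g47360 (-1.95) had 193, 412 and 111 CPM in OsbZIP62V, against 1424, 1274 and 1320.3 CPM in Kitaake, and 118, 90.7 and 81.1 CPM in osbzip62, against 325, 149.9 and 289 CPM in Nipponbare. Cinnamate 4-hydroxylase LOC_Os01g60450 (-1.42), an early step of lignin synthesis, the antiporter LOC_Os01g17214 (-1.20) and the F-box gene LOC_Os02g45320 (-1.05) completed the described genes. Of the lowered genes without a description, OS04G0572400 (-3.11) and OS02G0647300 (-3.23) led those that did not overlap in either cultivar, by the smaller of their changes in the 2 lines. Most of these calls were fragile. With a library left out they were lost in 11 of 12 fits for cinnamate 4-hydroxylase (adjusted p up to 0.102) and OS04G0572400 (up to 0.116), in 10 for OS02G0647300 (up to 0.0901), in 9 for beta-amylase (up to 0.0836) and the antiporter (up to 0.0727), in 8 for the epimerase (up to 0.0752), and in 2 for the endopeptidase (without Kitaake replicate 1 or osbzip62 replicate 3, up to 0.0562). The F-box gene stayed at or under an adjusted p of 0.0483 and fell short of the fold minimum without OsbZIP62V replicate 3 or Nipponbare replicate 3.

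Some genes were called although 1 line alone carried the change, with no or hardly any counts in the other cultivar. All 6 libraries of a cultivar were at 0 for 8 of the 177 higher genes (7 in the Kitaake cultivar and 1 in the Nipponbare cultivar) and for 1 of the 24 lower ones. For these, transgenic status is read from the other cultivar alone. The cytochrome P450 gene LOC_Os06g10260 had 324, 393 and 389 counts in osbzip62, against none in any other library. The retrotransposon gene LOC_Os03g31560 had 251, 329 and 312 counts in osbzip62, and none elsewhere. The CACTA transposon gene LOC_Os10g34409 had 496, 520 and 407 counts in osbzip62, against 0, 3 and 0 in Nipponbare, and 1, 1 and 0 counts in OsbZIP62V, against 1, 0 and 0 in Kitaake. LOC_Os11g41770 had 37, 45 and 78 counts in osbzip62 alone, and its call was lost in 11 of 12 fits with a library left out (adjusted p up to 0.146). LOC_Os07g02430, a conserved hypothetical protein named after its values were seen, had 2379, 2571 and 1851 counts in osbzip62, against none in Nipponbare, and none in OsbZIP62V, against 0, 1 and 1 in Kitaake. It was called higher for transgenic status (adjusted p = 0.00417) although its effects in the 2 lines had opposite signs and differed (adjusted p = 0.00438), and the effect in OsbZIP62V did not pass (adjusted p = 0.235). These 5 genes were thus found in osbzip62 and hardly or not at all in the other groups.

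Mobile elements were among the called genes, in differing patterns. Of 26 genes of transposable elements tested, 4 were higher (15.4%, against 5.46% of all genes with a paired locus) and 0 lower. LOC_Os07g32680 was on in both lines, LOC_Os11g19864, of the Pong class, rose by 1.54 in OsbZIP62V and 2.76 in osbzip62, and LOC_Os03g31560 and LOC_Os10g34409 were on in osbzip62 alone. Of 13 genes of silencing and chromatin, 1 rose, the histone H4 gene LOC_Os09g38020 (1.58, adjusted p = 0.00718), at 31.3 ± 9.57 CPM in OsbZIP62V, against 13.7 ± 1.07 in Kitaake, and 146 ± 43.3 CPM in osbzip62, against 37.3 ± 8.86 in Nipponbare (SD, n = 3 each). Histone H4 is encoded by near-identical copies, and the sources used here do not say how their reads were shared out.

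In the other lists few members passed, and their shares are to be read against the 5.46% of all tested genes with a paired locus that were higher. Of 38 heat shock proteins and chaperones 3 rose, among them the plastid chaperone ClpD (LOC_Os02g32520, 1.59, adjusted p = 0.00718). Of 123 protein kinases 4 rose, with LOC_Os12g43640 (1.31, adjusted p = 0.00249) and CIPK16 (LOC_Os09g25090, 1.40, adjusted p = 0.00623), a kinase that calcium sensors direct, first. Of 76 detoxification enzymes 4 rose, the P450 gene LOC_Os06g03930 (1.54, adjusted p = 0.00582) and LOC_Os06g10260 among them, and of 64 defence genes 3, which are shares of 5.26% and 4.69%, near that background. Of 41 genes of sugar and starch 2 rose and 1 fell, with LOC_Os02g01590 and the sugar-starvation gene LOC_Os03g49440 (1.29, adjusted p = 0.0128) higher. Redox genes gave 2 higher of 50, other hormones 2 of 29, auxin 1 of 32, cell wall 1 of 76, lipids 1 of 69, senescence 1 of 10, photosynthesis 1 of 22, replication and cell cycle 1 of 34 and metal handling 1 of 27, with 1 lower. Of 30 ribosomal protein genes 0 were called. At an adjusted p under 0.05 without a fold minimum the same holds for ribosomal genes, 29 of which had opposite signs in the lines. The cell-wall genes stood at medians of 4.59 in OsbZIP62V and -1.81 in osbzip62 (3.83 and -1.81 with genes at 0 set at their bound), with 61 of 76 of opposite sign and a difference of effects that passed in 21. Over all genes tested 44.9% had the same sign and the difference passed in 7.10%. Genes with a paired locus had medians of 1.40 and -0.47. List members were preselected as changed by the authors, so these counts and medians are no independent evidence.

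The positions of called genes were compared as a description. Within 3 positions in the order of listed identifiers, 21 of the called genes (10.4%) had another called gene, against 3.51% of all genes tested. They made 11 neighbouring pairs, of which 10 changed in the same direction. The pairs included LOC_Os07g03040 with OS07G0122100, LOC_Os07g32680 with LOC_Os07g32710, LOC_Os10g28350 with the heat stress factor HSFA2c (LOC_Os10g28340), and the Bowman-Birk protease inhibitor genes LOC_Os01g03330 and LOC_Os01g03340, a pair chosen after its values were seen. The exception was the lowered LOC_Os01g23710 beside the raised OS01G0339600. The library kit did not mark the strand, so reads of overlapping or antisense neighbours cannot be told apart.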

How the data were processed

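RNA was sequenced from 12 libraries, 3 per group. For each library the authors deposited unnormalized counts of reads on each gene, which all tests used. RPKM, deposited beside them, equals the counts divided by gene length and library total, and was used to pair identifiers, not for tests. The authors trimmed reads with SeqPrep and Sickle and aligned them with HISAT2 2.1.0, while build IRGSP-1.0, HTSeq 0.6.1p2 and Bowtie2 2.2.3 appear in the submitters' processing notes. The annotation release and the strand setting of the counting are not given in the sources used here. Totals ranged from 9224755 to 19759728 counts. Replicates differed beyond counting noise (chi-square per degree of freedom at least 8.86). The study describes the libraries of a group as biological replicates.

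Loci were paired to identifiers through the fold changes that the study's supplementary tables print, within a relative difference of 6e-06 and on the same chromosome, and 2895 loci were paired. All are genes the authors listed as changed, and the copy of 1 table is truncated. Annotations come from those tables. The authors' own fold changes were used for nothing else. The transgene sequences were not analysed here.

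The counts were filtered with edgeR's default rule (21878 genes kept) and scaled by TMM, and tested by edgeR's quasi-likelihood test with Benjamini-Hochberg adjustment over all genes. Transgenic status was tested in an additive fit with cultivar. Effects within each cultivar and their difference came from a fit of 4 group means. Genes were called at an adjusted p under 0.05 and a log2 fold change beyond 1. Standard errors were derived from the F statistic. Log2 CPM used a prior count of 2. Named genes were OsbZIP62, then called genes that do not overlap in either cultivar, ranked by the smaller within-cultivar change (up to 12 described and 2 others per direction), the 4 largest calls with a change under 1 in a cultivar, and 2 to 4 members per list by adjusted p. Gene lists were built from annotation words, except those of tissue markers, assayed genes and the targeted gene, which were given as loci. The members, lists and rules were chosen with earlier results of these data known. The fits were tested on simulated data. Alternatives were RLE scaling, no filter, DESeq2, limma-voom with sample weights, the average effect of 4 means, a replicate block, no fold minimum, single cultivars and leaving out libraries. Models ran in R 4.3.3 with DESeq2 1.42.0, edgeR 4.0.16 and limma 3.58.1, intervals in scipy 1.17.1, and plots in matplotlib 3.10.9 under Python 3.11.15.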

Additional observations from a re-analysis of the deposited data

Results flagged for a closer look

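The effects of the 2 lines differed by the test of the difference itself in 1553 genes. Among the genes named, it passed in the 9 below and in LOC_Os07g02430 (adjusted p = 0.00438, edgeR), described above with effects of opposite sign. For OsbZIP62 (LOC_Os07g48660) the effect in OsbZIP62V exceeded that in osbzip62 by 11.11 on the log2 scale (adjusted p = 0.00178, edgeR). The difference, OsbZIP62V minus osbzip62, was 2.03 for OsNAC10 (LOC_Os11g03300), 2.16 for the NAC gene LOC_Os12g03040, 1.67 for LOC_Os02g01590, 2.32 for PP2C68 (LOC_Os09g15670) and 1.18 for OSBZ8 (LOC_Os01g46970), with positive effects in both lines and the larger one in OsbZIP62V. It was -1.93 for HSFA2c (LOC_Os10g28340), -3.83 for OS02G0772100 and -1.98 for the arsenate reductase gene LOC_Os04g17660, with positive effects in both lines and the larger one in osbzip62. For 3 of these genes the smaller effect did not pass by edgeR. They were PP2C68 in osbzip62 (0.88, adjusted p = 0.116), and HSFA2c (0.78, adjusted p = 0.155) and LOC_Os04g17660 (0.64, adjusted p = 0.310) in OsbZIP62V. Apart from OsbZIP62 and LOC_Os07g02430, the adjusted p of the difference ran from 0.0118 for PP2C68 to 0.0468 for OsNAC10. For transgenic status the calls of HSFA2c and LOC_Os04g17660 were lost in 11 and 10 of the 12 fits with a library left out (adjusted p up to 0.116 and 0.111), and that of LOC_Os12g03040 without Kitaake replicate 1, Kitaake replicate 3 or osbzip62 replicate 3 (up to 0.0676).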

How the results depend on the processing

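RLE scaling gave 184 higher and 23 lower genes, of which 177 and 23 were among those called under TMM. Without the filter on low counts there were 174 and 18. More genes were called by DESeq2 (414 and 102), limma-voom with sample weights (286 and 115) and the average of 4 group means (342 and 85), and these held 167, 161 and 168 of the 177. Without a fold minimum 247 were higher and 82 lower. Leaving out a library in turn gave 83 to 170 higher and 7 to 27 lower genes, 86 to 180 without overlap in both cultivars, 9 to 13 passing in both cultivars and 345 to 3864 with a difference of effects. Without OsbZIP62V replicate 2 and Nipponbare replicate 3 these were 58, 9, 60, 12 and 5023. The Kitaake cultivar alone gave 769 and 409 genes, of which 117 and 14 were among the shared calls. The Nipponbare cultivar alone gave 77 and 9, of which 43 and 2 were among them. Called genes without overlap numbered 170 in all, 265 with DESeq2, 285 with no fold minimum and 32 in the Nipponbare cultivar alone. DESeq2 passed 68 genes in both cultivars, and 3653 with a difference of effects, where limma-voom found 2889. Replicate numbers did not pair the libraries, since deviations of same-numbered libraries correlated at -0.716 to 0.375. With the replicate block 95 genes were higher and 4 lower, 92 did not overlap, 7 passed in both cultivars and 470 differed in effect. No named gene reversed direction under any alternative that could be fitted. The cause of these shifts was not tested, except that fewer libraries enter some fits. Counts limit the precision for low genes such as Rab21.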
